A study of Mus musculus with 16 samples.

Results

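The 9 genes listed next, Grin1, Grin2a, Grin2b, Grin2d and Grin3a for NMDA receptor subunits and Grik1, Grik2, Grik3 and Grik5 for kainate receptor subunits, were read out of an array study of cultured mouse cortical neurons, out of 18193 genes that the platform annotation names. They were chosen by gene symbol and not by a measured value. Of the 9 genes, 8 had at least 1 probe set named for them, with 17 probe sets in all. Grin1, which encodes the obligatory NMDA receptor subunit, had none and is not analysed here. Grin2a was too dim to be tested, which left 7 genes, namely Grin2b, Grin2d, Grin3a, Grik1, Grik2, Grik3 and Grik5, and 14 of the 17 probe sets passed the same filter.

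The neurons came from cortices of C57BL/6 embryos at day 16.5. All cultures were infected with lentivirus for 6 h on day 5 in vitro, in the presence of polybrene, and all were silenced on day 7 before KCl was given for 0, 1, 3 or 6 h. The virus carried an shRNA against c-Fos in 1 arm and a control shRNA against firefly luciferase in the other, so control neurons carried a virus and an shRNA too. The 8 groups of 2 arrays were c-Fos shRNA at 0, 1, 3 and 6 h and control shRNA at 0, 1, 3 and 6 h, each labelled as biological replicates. The labels do not tie them to dissections, and the p-values below therefore cover the spread between arrays of a group, which may be technical. That spread includes an offset between replicates 1 and 2 that groups share, except where the replicate number is fitted as a block.

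NMDA and kainate receptors are glutamate-gated cation channels built from several subunits. An NMDA receptor joins GluN1, from Grin1, with GluN2 or GluN3 subunits. The usual form, with GluN2, passes calcium. It opens only when glutamate and a co-agonist are bound and depolarisation has removed the magnesium block. In the developing forebrain GluN2B (Grin2b) is the prevailing GluN2 subunit, GluN2A (Grin2a) comes later, GluN2D (Grin2d) is found early and in interneurons, and GluN3A (Grin3a) is a juvenile subunit that lowers calcium entry. Kainate receptors need at least 1 of GluK1 to GluK3 (Grik1, Grik2 and Grik3), which form channels by themselves, and GluK5 (Grik5) is a high-affinity subunit that works only together with them. KCl depolarises neurons and opens voltage-gated calcium channels, and c-Fos is a subunit of the transcription factor AP-1.

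RefSeq promoter sequence (GRCm38.p6) was on hand for 5 of the 9 genes. The 250 bases before the annotated start are shown for the 3 kainate receptor genes of this set whose representing probe set fell after 6 h of KCl, because the study lowers an AP-1 subunit and AP-1 motifs could be looked for there. They are written 5′ to 3′ on the gene's strand, with GC boxes (GGGCGG on either strand) in capitals.
Grik2 (chr10:49788755-49789004, - strand): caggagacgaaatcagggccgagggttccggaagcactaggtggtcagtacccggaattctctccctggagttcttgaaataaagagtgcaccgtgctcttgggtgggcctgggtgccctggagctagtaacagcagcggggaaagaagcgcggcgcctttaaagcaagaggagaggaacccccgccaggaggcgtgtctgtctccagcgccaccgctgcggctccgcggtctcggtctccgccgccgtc
Grik3 (chr4:125490446-125490695, + strand): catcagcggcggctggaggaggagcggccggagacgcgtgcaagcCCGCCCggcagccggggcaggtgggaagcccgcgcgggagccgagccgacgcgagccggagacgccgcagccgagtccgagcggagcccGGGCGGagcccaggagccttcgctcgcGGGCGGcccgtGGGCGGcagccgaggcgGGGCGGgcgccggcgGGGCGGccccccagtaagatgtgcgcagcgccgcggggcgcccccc
Grik5 (chr7:25072370-25072619, - strand): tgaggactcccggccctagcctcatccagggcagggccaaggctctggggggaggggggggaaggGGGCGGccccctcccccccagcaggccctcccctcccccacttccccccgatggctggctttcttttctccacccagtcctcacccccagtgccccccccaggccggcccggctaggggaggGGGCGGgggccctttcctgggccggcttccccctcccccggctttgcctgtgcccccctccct
None of these 3 windows, nor those of Grin1 and Grin2d, held an AP-1 motif (TGANTCA), a CRE (TGACGTCA) or an EGR motif (GCGNGGGCG, which can overlap a GC box) on either strand. Among 32851 promoter windows of the same length, 6.75% held the AP-1 motif, 1.55% the CRE and 4.7% the EGR motif. The GC box, looked for after the other motifs and after the data were seen, was in 32.7% of all windows. It was at 6 places in Grik3, at 2 in Grik5 and at none in Grik2. G and C made up 82% of the Grik3 window, 75.2% of Grik5 and 62.8% of Grik2, beside a median of 52.4% over all windows. The part of base composition in these GC box counts was not tested. The absence of a motif says only that these letters are not in this window.

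Fos was measured on every array as a check of the labels. Its deposited intensity in c-Fos shRNA neurons was 118 and 152 before KCl, 7728 and 9623 after 1 h, 3763 and 4297 after 3 h and 3142 and 3339.97 after 6 h. In control neurons it was 261 and 232 before KCl, 14633 and 14719 after 1 h, 13638 and 13308 after 3 h and 11960.4 and 11898 after 6 h. The arms did not overlap at any time, and the mean with c-Fos shRNA was lower by 40.9% to 72.8%. Array medians ran from 104.75 to 118.56, and replicates correlated at 0.9906 to 0.9939 over tested genes. The neuronal markers Map2 (11909 to 14458 over the 16 arrays) and Stmn2 (16819 to 18443) were bright on all arrays. Markers of astrocytes (Slc1a3, 4817 to 6558) and of the oligodendrocyte lineage (Olig1, 5068 to 8296) were present too. Of 7 microglial markers 2 passed the filter, Csf1r (119 to 201) and C1qb (21.2 to 67.4), and Cx3cr1, Aif1, Tmem119, P2ry12 and C1qa did not. Of 8 markers of vascular cells and fibroblasts 4 passed it, Kdr (64.1 to 117), Col1a2, Col3a1 and Pdgfrb, and Pecam1, Cldn5, Cdh5 and Col1a1 did not. In such mixed cultures fewer cells of a type and less RNA per cell cannot be told apart.

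Levels are given as the deposited linear intensity of 1 probe set per gene, the brightest on average, and levels of different genes are not compared, since probe sets differ in brightness. Changes are differences of log2(intensity + 16) after quantile normalization, from limma fitted over 13915 genes, with the standard error after the ± sign. The calling threshold was an adjusted p of 0.05 (Benjamini-Hochberg, over all tested genes of that comparison).

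After 6 h of KCl, NMDA and kainate receptor genes that passed the test were all lower than at 0 h by their representing probe set. With c-Fos shRNA 4 of 7 genes fell (Grin2b, Grin3a, Grik2 and Grik5) and none rose, and in control neurons 5 of 7 fell (the same 4 and Grik3) and none rose. Over all tested genes 41% were called in the c-Fos arm (24.9% lower and 16.1% higher) and 44.1% in the control arm (27.4% lower and 16.7% higher). The median change of the 7 genes was -0.28 with c-Fos shRNA and -0.41 in control neurons, beside medians of -0.06 and -0.07 over all tested genes. Inhibitory neuron markers were called higher at 6 h in 5 of 8 cases in each arm, and astrocyte markers lower in 1 of 8, and their part in the receptor changes was not tested. The falls lay between 0.24 and 0.70 on the log2 scale. With each probe set fitted as its own feature, 7 of 14 were called lower and 1 higher with c-Fos shRNA. In control neurons 6 of 14 were called lower and 2 higher. Over all probe sets 32.1% and 35.4% were called. With the replicate number as a block, which the data bear out as a pairing, 6 of 7 were called lower in each arm, with 55% and 56.9% of all genes called. With all probe sets of a gene averaged, 1 gene, Grik2, was called higher in each arm, with 3 called lower in c-Fos shRNA neurons and 2 in control neurons. Without c-Fos 6 h replicate 1 the count with c-Fos shRNA dropped to 1, and without c-Fos 0 h replicate 2 to 2. With control shRNA it dropped to 2 without 0 h replicate 2 or 6 h replicate 1, and to 3 without either of the other 2 arrays.

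**Figure D1:**
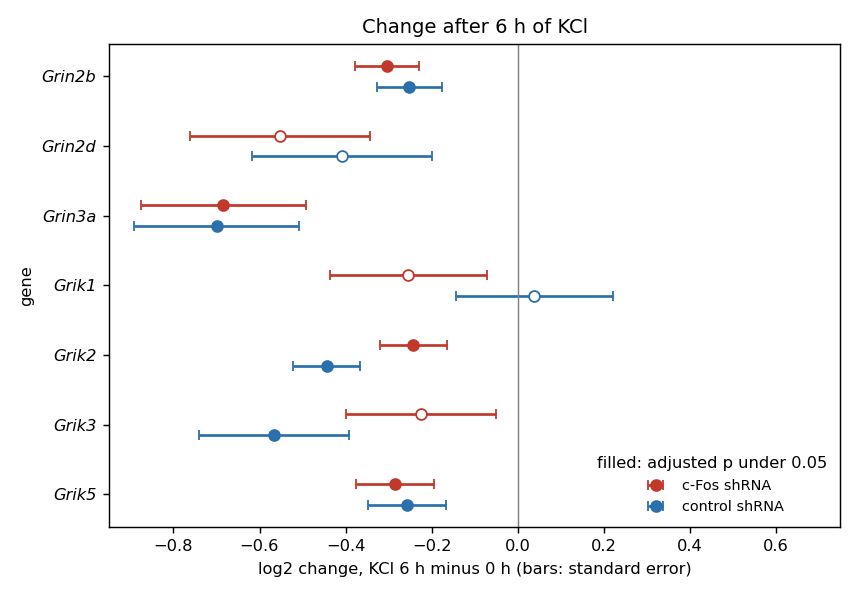
Log2 change at 6 h of KCl against 0 h for the 7 tested genes (horizontal axis, with standard error), c-Fos shRNA above control shRNA for each gene. Filled points passed an adjusted p of 0.05. All points lie below 0 except Grik1 in control neurons (0.04), and Grin3a lies farthest to the left in both arms.

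Grin3a showed the largest falls of the set at 6 h. Its intensity in c-Fos shRNA neurons was 1150.05 and 1478 before KCl, 1111 and 1554 after 1 h, 883 and 1176 after 3 h and 689 and 905 after 6 h. Its intensity in control neurons was 1049 and 1341 before KCl, 1115 and 1267 after 1 h, 852 and 1005 after 3 h and 632 and 786 after 6 h. Replicate 2 was the higher array in all 8 groups, the 6 h arrays lay below the 0 h arrays in each arm, and the arms overlapped at every time. The change at 6 h was -0.68 ± 0.19 with c-Fos shRNA (limma adjusted p = 0.0127) and -0.70 ± 0.19 in control neurons (limma adjusted p = 0.0103). Within replicate numbers it was -0.70 and -0.67 with c-Fos shRNA, and -0.66 and -0.74 in control neurons. The 3 h change was -0.35 in both arms and was not called, with adjusted p of 0.226 with c-Fos shRNA and 0.219 in control neurons, but it was called with the replicate block (limma adjusted p = 0.00155 and 0.00144). A second probe set (600.3 on average) fell at 6 h by 0.57 with c-Fos shRNA and by 0.66 in control neurons (limma adjusted p over all probe sets = 0.0161 and 0.00667). The third was dim (92.2 on average) and changed by -0.43 in both arms, which was not called. The call of the representing probe set was lost in each arm without 0 h replicate 2 or 6 h replicate 1. Over the fits leaving out 1 array, the change ran from -0.825 to -0.544 in the c-Fos arm. In the control arm it ran from -0.87 to -0.529. These fits had no replicate block, so the offset between replicate numbers enters them. With the block and all arrays, the limma adjusted p at 6 h was 1.34e-06 with c-Fos shRNA and 8.81e-07 in control neurons.

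Grin2b, for the subunit that binds CaMKII at the synapse, fell less but with little spread in the c-Fos arm. In c-Fos shRNA neurons Grin2b was at 3016 and 3118 before KCl, 2899 and 2833 after 1 h, 2797 and 2808 after 3 h and 2499 and 2510.5 after 6 h. Control neurons gave 3316 and 2895 before KCl, 3140.03 and 2985 after 1 h, 2672 and 2716 after 3 h and 2769.5 and 2549 after 6 h. No 3 h or 6 h array of an arm reached the 0 h arrays of that arm. The 6 h change was -0.30 ± 0.07 with c-Fos shRNA (limma adjusted p = 0.00572) and -0.25 ± 0.07 in control neurons (limma adjusted p = 0.0155), and at 3 h it was -0.16 (not called, adjusted p = 0.149, and 0.0403 with the replicate block) and -0.24 (adjusted p = 0.0278). A similarly bright probe set (2384 on average) fell at 6 h by 0.37 with c-Fos shRNA and by 0.41 in control neurons. Neither of the 2 dim ones was called lower, and the dimmer of them rose by 0.70 in control neurons at 6 h (adjusted p over all probe sets = 0.0347), with 129 and 76.3 at 6 h against 65.6 and 46.6 at 0 h. With all its probe sets averaged, Grin2b changed by -0.01 in c-Fos shRNA neurons (adjusted p = 0.975) and by 0.04 in control neurons (0.777). In the control arm the 6 h call was lost without 0 h replicate 1 (change -0.14, adjusted p = 0.18), without 6 h replicate 2 (adjusted p = 0.124), or with arrays shifted to one median (change -0.20, adjusted p = 0.0823). At 3 h it was lost without 0 h replicate 1 or either 3 h array, and under both other scalings.

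Grin2d was dim, and the dimmer of its 2 probe sets was below the filter. The c-Fos shRNA arrays read 51.6 and 75.4 before KCl, 49.0 and 71.4 after 1 h, 48.6 and 63.6 after 3 h and 31.4 and 45.1 after 6 h for Grin2d. In control neurons Grin2d was at 76.0 and 75.2 before KCl, 65.1 and 72.2 after 1 h, 52.6 and 76.3 after 3 h and 47.1 and 59.0 after 6 h. The 6 h arrays lay below the 0 h arrays in each arm. The change of -0.55 ± 0.21 with c-Fos shRNA just missed the threshold (limma adjusted p = 0.0515), and that of -0.41 ± 0.21 in control neurons was not called (adjusted p = 0.138), while both were called with the replicate block (limma adjusted p = 0.0102 and 0.0477). The pseudocount shrinks changes of a gene this dim. Grin2a, at the 20.6th percentile of probe set means, had intensities of 11.6 to 41.4 with c-Fos shRNA and 11.8 to 42.9 in control neurons, and no neighbouring groups in the order of its levels were apart, although both c-Fos arrays at 0 h (11.6 and 20.2) lay below both control arrays (24.0 and 38.0).

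Among kainate receptor genes, Grik2 had 2 tested probe sets that moved in opposite directions with KCl. The brighter represents the gene. Its intensity in c-Fos shRNA neurons was 1633 and 1824 before KCl, 1603 and 1722 after 1 h, 1566 and 1528 after 3 h and 1419 and 1488 after 6 h. Its intensity in control neurons was 1768 and 1567 before KCl, 1673 and 1587 after 1 h, 1369 and 1330.5 after 3 h and 1199 and 1217 after 6 h. All 3 h and 6 h arrays lay below the 0 h arrays of their arm. At 6 h it had fallen by 0.24 with c-Fos shRNA (standard error 0.08, limma adjusted p = 0.0245) and by 0.44 in control neurons (standard error 0.08, limma adjusted p = 0.00051), and at 3 h by 0.30 in control neurons (limma adjusted p = 0.011). The call in the c-Fos arm was lost without 0 h replicate 2 or either 6 h array (adjusted p = 0.0804 to 0.145), the control call at 3 h was lost without 0 h replicate 1 (0.119) or 3 h replicate 2 (0.0638), and the control call at 6 h was kept without any 1 array.

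The other probe set of Grik2 rose. It was chosen for description after its values were seen. Its intensity in c-Fos shRNA neurons was 198 and 188 before KCl, 237 and 233 after 1 h, 427 and 333 after 3 h and 507 and 468 after 6 h. The control arrays read 215 and 180.1 before KCl, 239 and 198 after 1 h, 353 and 308 after 3 h and 425 and 447 after 6 h. Every array at 3 and 6 h lay above every array at 0 and 1 h, in both arms. The change at 3 h was 0.94 with c-Fos shRNA and 0.75 in control neurons (limma adjusted p over all probe sets = 0.00113 and 0.00444), and at 6 h it was 1.30 and 1.18 (limma adjusted p = 6.4e-05 and 0.000108). The rise at 3 h in control neurons was at the threshold without 3 h replicate 1 (adjusted p = 0.0502), and the other 3 calls were kept without any 1 array of their comparison. A direction for Grik2 as a gene therefore depends on the probe set. With all probe sets of a gene averaged, Grik2 changed at 6 h by 0.53 with c-Fos shRNA (limma adjusted p = 0.00169) and by 0.37 in control neurons (0.0137). Where in the transcript each probe set lies is not given in the sources used here.

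**Figure D2:**
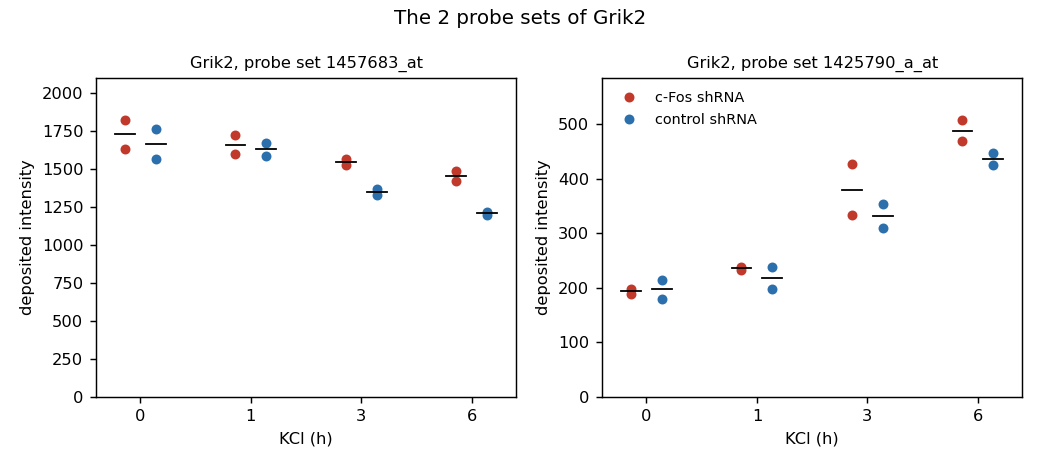
Deposited intensity (vertical axes, from 0) of the 2 Grik2 probe sets against KCl time. Points are arrays, c-Fos shRNA left of control shRNA at each time, and black bars are means of 2 arrays. From 0 to 6 h the left probe set goes down and the right one goes up in both arms.

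Grik5 fell in both arms at 6 h. Grik5 intensity in c-Fos shRNA neurons was 687 and 689 before KCl, 702 and 720.2 after 1 h, 689.5 and 592 after 3 h and 512 and 566 after 6 h. The control arrays read 704 and 691 before KCl, 738 and 744 after 1 h, 631 and 653 after 3 h and 546 and 557 after 6 h. The 1 h arrays were above the 0 h arrays in intensity in both arms, and the 6 h arrays were below them. The change was -0.28 ± 0.09 with c-Fos shRNA (limma adjusted p = 0.0239) and -0.26 ± 0.09 in control neurons (limma adjusted p = 0.0357) at 6 h. At 1 h it was 0.01 and 0.02 and was not called. The control call was lost without any 1 of its 4 arrays (adjusted p = 0.078 to 0.143), and the c-Fos call without 0 h replicate 1 or either 6 h array (0.0662 to 0.143).

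Grik3 was called lower with KCl in control neurons and missed the threshold in c-Fos shRNA neurons, and the interaction given further on tests that difference. The c-Fos shRNA arrays read 1822 and 2382 before KCl, 1644 and 2018 after 1 h, 1567 and 2102 after 3 h and 1477 and 2099.7 after 6 h for Grik3. In control neurons Grik3 was at 2847 and 3169 before KCl, 2812 and 3109.6 after 1 h, 2156 and 2598 after 3 h and 1950.05 and 2170.3 after 6 h. Replicate 2 was the higher array in all 8 groups. In control neurons the 3 h and 6 h arrays lay below those at 0 h, and in c-Fos neurons the times overlapped. The 6 h change was -0.23 ± 0.17 with c-Fos shRNA (not called, limma adjusted p = 0.345, and 0.0201 with the replicate block) and -0.57 ± 0.17 in control neurons (limma adjusted p = 0.0189). The 3 h change in control neurons, -0.38, was called only with the replicate block (limma adjusted p = 0.000646, against 0.128 without it). The control call at 6 h was lost without 0 h replicate 2 (0.104) or 6 h replicate 1 (0.102), and with its probe sets averaged (0.147). The other Grik3 probe set, between 0.86 and 11.83 on all arrays, was below the filter.

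Grik1, which in cortex is found largely in interneurons, did not change detectably with KCl by its representing probe set. In c-Fos shRNA neurons Grik1 was at 519 and 638 before KCl, 562 and 525 after 1 h, 591 and 676 after 3 h and 475 and 448 after 6 h. Control neurons gave 323 and 434 before KCl, 370.2 and 503 after 1 h, 325 and 440.2 after 3 h and 324 and 409 after 6 h. The control groups overlapped one another at all times, while both c-Fos arrays at 6 h lay below both at 0 h. The 6 h change was -0.25 ± 0.18 with c-Fos shRNA (limma adjusted p = 0.305) and 0.04 ± 0.18 in control neurons (limma adjusted p = 0.889). Its dimmer probe set fell with c-Fos shRNA at 3 h by 0.76 and at 6 h by 0.66 (limma adjusted p over all probe sets = 0.0288 and 0.038), and its changes of -0.47 and -0.40 in control neurons were not called.

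**Figure D3:**
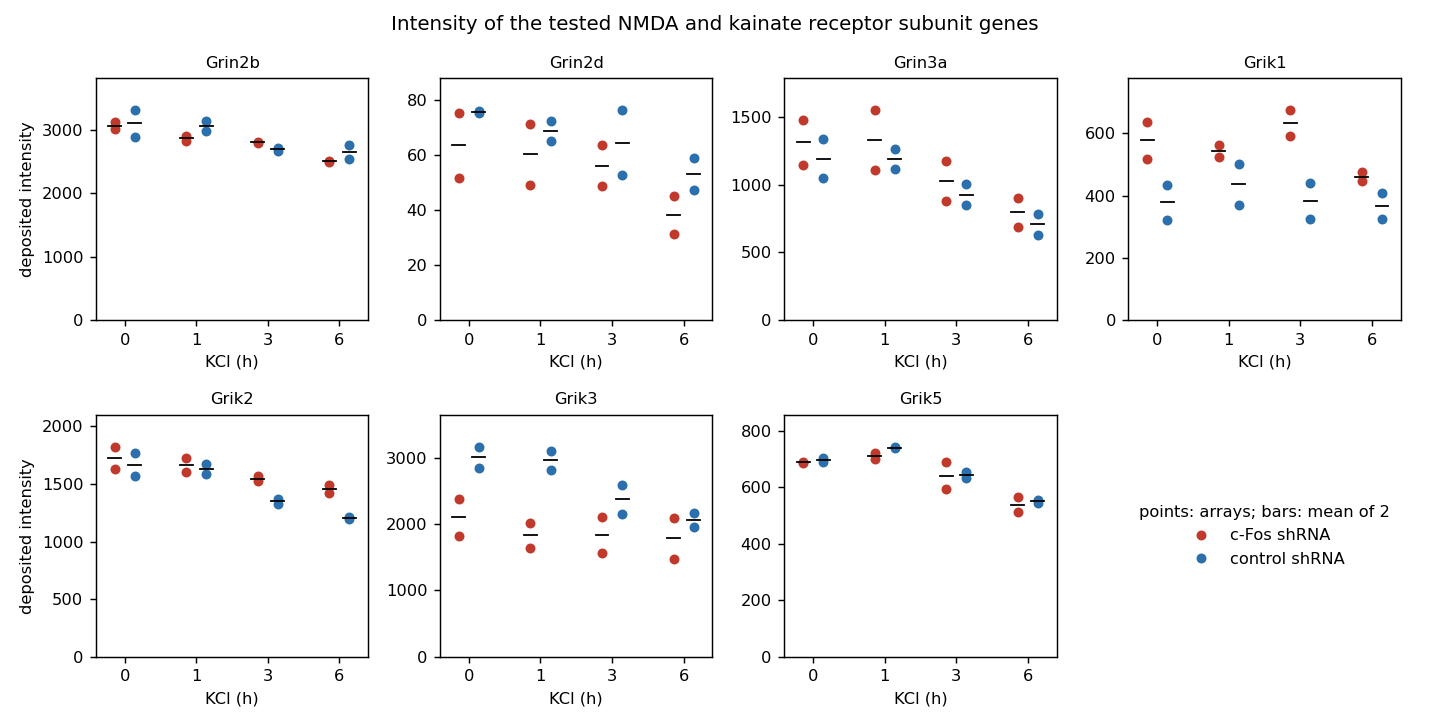
Deposited intensity (vertical axes, from 0) of the representing probe set of each tested gene against KCl time. Points are arrays, c-Fos shRNA left of control shRNA at each time, and black bars are means of 2 arrays. Grin3a is lowest at 6 h in both arms, Grik3 is lower with c-Fos shRNA at 0 and 1 h, and Grik1 is higher with c-Fos shRNA at every time.

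Fewer members were called at the earlier times than at 6 h by their representing probe sets. At 1 h no member was called in either arm, where 3.38% of all genes were called in the c-Fos arm (1.96% higher and 1.42% lower) and 3.12% in the control arm (2.3% higher and 0.819% lower). The 1 h changes of the 7 genes ran from -0.23 to 0.01 with c-Fos shRNA and from -0.09 to 0.15 in control neurons. At 3 h no member was called in the c-Fos arm (28.2% of all genes, 9.9% higher and 18.3% lower) and 2 fell in the control arm, Grin2b and Grik2 (30.2% of all genes, 11% higher and 19.3% lower). The replicate block called 2 with c-Fos shRNA, Grin2b and Grin3a, and 4 in control neurons, Grin2b, Grin3a, Grik2 and Grik3, where 42.9% and 44.4% of all genes were called in the same fit. The calls at 3 and 6 h share their 0 h arrays. The control count at 3 h was 0 without 0 h replicate 1 or 3 h replicate 2, and 1 without 3 h replicate 1, and it was 1 under each of the other scalings.

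Between the arms, Grik1 was higher and Grik3 lower with c-Fos shRNA before KCl was given. At 0 h 1 of 7 genes was called higher and 1 lower, beside 22.3% of all genes called (12% higher and 10.3% lower). Grik1 was 519 and 638 in c-Fos shRNA neurons and 323 and 434 in control neurons, a difference of 0.61 ± 0.18 (limma adjusted p = 0.0313). Grik3 was 1822 and 2382 in c-Fos shRNA neurons and 2847 and 3169 in control neurons, a difference of -0.54 ± 0.17 (limma adjusted p = 0.0446). Arrays of the arms did not overlap in either gene. The Grik1 call was lost without either c-Fos array or without control replicate 1 (0.0717 to 0.247) and without further normalization (0.0513). That of Grik3 was lost without c-Fos replicate 1 or either control array. It was also lost without further normalization (0.0777), with no filter (0.0564) or with its probe sets averaged (0.0667). Nor was it kept with each probe set fitted as its own feature. There 1 of 14 tested member probe sets was called higher and 0 lower, with 15.6% of all probe sets called.

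During KCl 1 of 7 genes was called at each time. At 1 h Grik3 was lower (-0.70 ± 0.17, limma adjusted p = 0.0128, with 20.7% of all genes called, 10.8% higher and 9.98% lower), at 3 h Grik1 was higher (0.73 ± 0.18, limma adjusted p = 0.0117, with 23.3% called, 12.4% higher and 10.9% lower), and at 6 h Grik2 was higher (0.26 ± 0.08, limma adjusted p = 0.0301, with 23.8% called, 13.4% higher and 10.4% lower). The Grik1 difference at 1 and 6 h, 0.34 and 0.32, and the Grik3 difference at 3 and 6 h, -0.34 and -0.20, had the same sign and were not called. With the replicate block the count at 3 h was 3, with Grik2 (0.0266) and Grik3 (0.00181) added, and 40.4% of all genes were called, so 3 of 7 is near the background. For Grik2 at 6 h the second probe set differed by 0.13 and was not called. The Grik2 call was lost without any 1 of its 4 arrays, that of Grik3 at 1 h without c-Fos replicate 1 or control replicate 2, and that of Grik1 at 3 h without c-Fos replicate 2 or control replicate 1.

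Averaged over the 4 times the arms differed in 3 of 7 genes, beside 47.9% of all genes called (25.2% higher and 22.7% lower). Grik1 was higher by 0.50 ± 0.09 (limma adjusted p = 0.000635), with 448 to 676 in the 8 c-Fos arrays and 323 to 503 in the 8 control arrays. For its dimmer probe set the average difference was 0.29 ± 0.11 (limma adjusted p over all probe sets = 0.0584), not called. No single time was called there, with 0.59 before KCl, -0.08 after 1 h, 0.30 after 3 h and 0.33 after 6 h. Within replicate numbers its 3 h difference was 0.78 and -0.18. Grik2 was higher by 0.14 ± 0.04 (limma adjusted p = 0.00872), with 1419 to 1824 and 1199 to 1768. Grik3 was lower by 0.44 (standard error 0.09, limma adjusted p = 0.00105), with 1477 to 2382 and 1950.05 to 3169. These 3 calls were kept without any 1 of the 16 arrays, and that of Grik2 was lost with its probe sets averaged (0.0602), as was its call at 6 h (0.226) and that of Grik3 at 1 h (0.077). The remaining genes differed by -0.02 ± 0.04 (Grin2b), -0.03 ± 0.05 (Grik5), 0.15 ± 0.10 (Grin3a) and -0.21 ± 0.10 (Grin2d) and were not called. The replicate block called 5 of 7, adding Grin3a (0.00281) and Grin2d (0.0433), with 60.4% of all genes called. Inhibitory neuron markers, listed because Grik1 is an interneuron gene, were called lower in 1 of 8 and higher in 0 of 8 on this average (Slc32a1, -0.11). Their summed intensity at 0 h was 18669 to 18827 in c-Fos shRNA arrays and 19215 to 20331 in control arrays, and at 6 h 27301 to 27871 and 25353 to 26999. Excitatory neuron markers summed to 14041 to 14331 in c-Fos shRNA arrays and 17487 to 18084 in control arrays at 0 h, and 2 of 5 were called higher and 2 lower on the average of times. On the same average 6 of 6 neuronal markers were called, 3 higher and 3 lower with c-Fos shRNA (Tubb3 at 0.27 and Rbfox3 at -0.74). Astrocyte markers were called higher in 1 of 8 and lower in 3 of 8, with a median difference of -0.09 and a range of -0.85 to 0.23. The lowest was S100b, a dim one (27.0 to 121 over the 16 arrays). Progenitor markers were called lower in 3 of 7. A single marker each of the oligodendrocyte lineage (Mbp) and of vascular cells and fibroblasts (Pdgfrb) was called lower. What part these markers have in the Grik1, Grik2 and Grik3 differences was not tested.

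**Figure D4:**
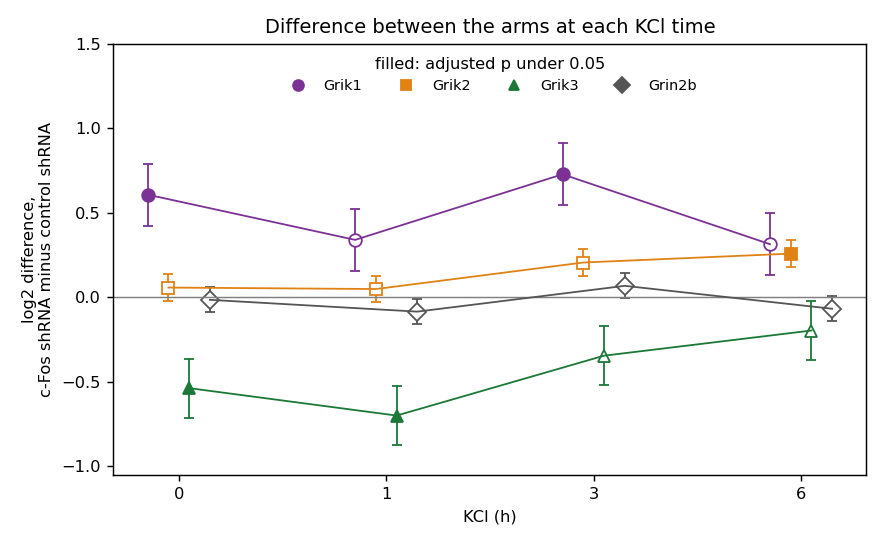
Log2 difference between the arms, c-Fos shRNA minus control shRNA (vertical axis, with standard error), against KCl time for Grik1, Grik2, Grik3 and, for comparison, Grin2b. Filled symbols passed an adjusted p of 0.05. Grik1 lies above 0 and Grik3 below 0 at all 4 times, while Grin2b stays within 0.1 of 0. Grin2d and Grin3a are not drawn. Grin2d was below 0 (-0.13 to -0.34) and Grin3a above 0 (0.14 to 0.18) at all 4 times, and neither was called at any of them.

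The KCl response of these genes was not called different between the arms without the replicate block, and with it 1 gene, Grik3, was called by the F test. At 6 h the interaction, c-Fos arm change less control arm change, was called for 0 of 7 genes, where 1.24% of all genes were called (0.453% higher and 0.783% lower). It ran from -0.29 ± 0.26 in Grik1 to 0.34 ± 0.25 in Grik3, and was 0.20 ± 0.11 in Grik2, which had an adjusted p of 0.46. For Grin3a it was 0.02 ± 0.27, and 0.02 ± 0.11 with the replicate block. The 6 h changes themselves were -0.68 with c-Fos shRNA and -0.70 in control neurons. The F test over 1, 3 and 6 h called 0 of 7 (0.862% of all genes), with unadjusted p of 0.193 to 0.999. With the replicate block it called Grik3 alone (limma adjusted p = 0.0251), with 10.1% of all genes called. The interaction at 6 h still called 0 of 7 with the block, where 11.3% of all genes were called. Grik3, at 0.34 ± 0.11, just missed the threshold there (limma adjusted p = 0.0539).

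Of the family members outside the set, Grik4, for a second high-affinity kainate subunit, had 211 and 223 at 6 h against 272 and 302 at 0 h with c-Fos shRNA, a fall of 0.34 on the log2 scale (limma adjusted p = 0.0222). With control shRNA it had 240.49 and 298 at 6 h against 338 and 334 at 0 h, a change of -0.25 that was not called (adjusted p = 0.077). It was lower with c-Fos shRNA on the average over times by 0.28 (limma adjusted p = 0.000815). Grin3b, just above the filter, was called in no comparison (unadjusted p under 0.05 not reached at 6 h in either arm), and Grin2c was below the filter.

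Other gene lists of the glutamate receptor apparatus are read against the 41% of all genes called at 6 h in the c-Fos arm and the 44.1% in the control arm. AMPA and delta receptor subunit genes fell in 5 of 5 tested cases in both arms, with a median change of -0.59 with c-Fos shRNA and -0.84 in control neurons. Of 18 tested auxiliary and trafficking genes 3 rose and 3 fell with c-Fos shRNA, and 3 rose and 4 fell in control neurons, so the share called was below that over all genes in both arms. The AMPA receptor partner gene Shisa9 changed by -1.54 with c-Fos shRNA and -1.66 in control neurons, and the stargazin relative Cacng3 by 1.16 and 1.29. Kainate receptor partners Neto1 and Neto2 were not called at 6 h of KCl, but between the arms on the average of times Neto1 was lower by 0.83 and Neto2 higher by 0.20 with c-Fos shRNA. Of 13 postsynaptic scaffold genes 5 rose and 3 fell in each arm, with Dlg1 (SAP97) at 0.91 and 1.34 and Homer2 at -0.69 and -0.44. The scaffold changes ran from -0.69 to 1.42 with c-Fos shRNA and from -0.65 to 1.34 in control neurons. Of 16 NMDA receptor signalling genes 1 rose and 5 fell in c-Fos shRNA neurons and 1 rose and 6 fell in control neurons, a share called just below that over all genes in both arms. The calcium-activated exchange factor gene Rasgrf1 was the one that rose, by 1.91 and 1.38, and its relative Rasgrf2 changed by -0.92 and -1.16. In co-agonist supply Slc6a9, the glycine transporter gene, was at 0.02, not called, in c-Fos shRNA neurons and rose by 1.12 in control neurons, and the interaction of -1.10 was not called (limma adjusted p = 0.104). Shmt2, a serine hydroxymethyltransferase gene, rose by 0.48 with c-Fos shRNA and 0.63 in control neurons, with 1 of 7 and 3 of 7 genes higher and none lower. Of 6 neuronal markers 2 rose and 1 fell at 6 h in c-Fos shRNA neurons, and 1 rose and 1 fell in control neurons. Tubb3 was the one that fell, by 0.28 with c-Fos shRNA and by 0.75 in control neurons, while Snap25 rose by 0.19 and 0.31, and Syt1 rose by 0.28 with c-Fos shRNA and was at -0.10, not called, in control neurons. Map2, Stmn2 and Rbfox3 were called in neither arm.

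In the order of the 8 group means on the normalized log2 scale, most neighbouring groups overlapped in their arrays. Overlap sets aside the pairing of replicate numbers, so it does not show that groups are alike. For Grin3a none of the 7 neighbouring pairs of groups was apart. Its order went from c-Fos 0 h at the top to control 6 h at the bottom. Within replicate numbers, though, the representing probe set of Grin3a was higher with c-Fos shRNA at every time, by 0.02 to 0.34. With the replicate block no single time was called for it, and the average over times was (limma adjusted p = 0.00281). The other tested Grin3a probe sets differed on that average by 0.10 (the brighter) and -0.18 (the dimmer). Neither was called without the block. Within replicate numbers the brighter was lower only in replicate 1 at 1 h (-0.10). The dimmer was lower in both replicates at 0 h (-0.15 and -0.45) and 6 h (-0.17 and -0.42). At 1 and 3 h its sign differed between replicates. For Grin2b 3 of 7 pairs were apart and for Grik2 also 3 of 7, with c-Fos 6 h, control 3 h and control 6 h at the bottom of Grik2, each apart from the next. For Grik3 only control 1 h and control 3 h were apart, with the control groups at 0 and 1 h above all other groups. For Grik1 the c-Fos groups took the 4 highest places, and only c-Fos 3 h was apart from the next group. For Grin2d the top and the bottom group were apart from their neighbours. For Grik5 the 6 h groups were lowest and apart from the rest.

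As a description over the 16 arrays, which share groups and replicate numbers, the tested gene most like Grin3a was Igdcc4 (Pearson r = 0.986), followed by Rnft2 (0.979) and Hspa12a (0.976). Nearest to Grin2b were Sertm1 (0.918), Fh1 (0.902) and Secisbp2l (0.896), and nearest to Grin2d Isca2 (0.946), Trappc1 (0.943) and Serac1 (0.942). Nearest to Grik1 were Dpysl2 (0.956), Pcbd2 (0.931) and Edil3 (0.929), and nearest to Grik2 Ccp110 (0.944), 6330403K07Rik (0.943) and Larp4b (0.939). Nearest to Grik3 were Cbx6 (0.95), Gmfb (0.943) and Ascc2 (0.939), and nearest to Grik5 Nubp2 (0.945), Prkci (0.939) and Cul9 (0.922). Among the 7 genes themselves r was highest between Grin2d and Grik3 (0.777) and lowest between Grik1 and Grik3 (-0.45).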

How the data were processed

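RNA of 16 cultures was hybridised to single-colour Affymetrix mouse genome 430 2.0 arrays. The authors deposited 1 linear intensity for each probe set of an array, from 0.51 to 23935.63. How probe sets were summarized and scaled is not stated in the labels, and detection calls were not analysed here.

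Of 45037 non-control probe sets, 34945 had 1 gene in the platform annotation, 932 several and 9160 none. Symbols were updated through the Entrez number, and 34741 matched RefSeq. Because array medians differed by 13.18%, over a tolerance of 10%, log2(intensity + 16) was quantile normalized. A gene was its probe set with the highest mean, tested above the 30th percentile of all non-control probe sets (log2 5.7856). limma 3.58.1 in R 4.3.3 fitted the 8 group means over 16 arrays (8 residual degrees of freedom), with eBayes and an intensity trend. It was tested on simulated data with independent noise on each array, which lack the correlation between replicates given next.

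Differences between replicates 1 and 2 correlated over 0.1 in 28 of 28 pairs of groups (0.364 to 0.596), so the label's numbers were taken as a pairing. For the 7 tested members, blocked values stand beside a result of the representing probe set that they change. Values of other single genes, of marker lists and of further probe sets are given without the block. Whether the block changes those is not reported here. Protein sequences were not used here, so a planned comparison of them was not run. The genes, lists and tests were chosen with earlier results of these data known. The named genes were Fos, the 9 members, their families, up to 4 called genes per list by size of change, and the 3 genes with the highest correlation to each tested member. Alternatives were the block, other scalings, pseudocount 1, filters, averaged probe sets and leaving out each array. Fits that left out an array had no block, so the offset between replicate numbers enters the call losses given for them. The number of arrays limits the precision.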

Additional observations from a re-analysis of the deposited data

How the results depend on the processing

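Called changes of single genes numbered 19, and over the 7 alternatives that keep all arrays 116 of 133 repeats kept direction and call, 13 missed the threshold and 4 changed sign. The sign changes came with all probe sets of a gene averaged: Grik2 at 0.531 (c-Fos, 6 h), 0.225 (control, 3 h) and 0.368 (control, 6 h), and Grin2b at 0.0439 (control, 6 h), where dim or rising probe sets enter the mean. Counts of called genes moved as follows. With the replicate block, the counts were 2 for KCl at 3 h with c-Fos shRNA (0 in the main analysis), 4 with control shRNA (2), 3 between the arms at 3 h (1), 5 on the average over times (3) and 1 for the F test (0). The block changed no other count by over 1.5 times. Without further normalization the control arm's count for KCl at 3 h was 1, with 0 between the arms at 0 h, and with arrays shifted to one median 1 for KCl at 3 h with control shRNA. With no filter the count between the arms at 0 h was 1 of 8 genes tested. With probe sets averaged the counts were 1 for KCl at 3 h with c-Fos shRNA, 0 at 3 h and 3 at 6 h with control shRNA (1 higher and 2 lower, where the main analysis had 5 lower), and 1, 0 and 0 between the arms at 0, 1 and 6 h. At 6 h with c-Fos shRNA the count stayed 4, but with 1 higher and 3 lower. Leaving out 1 array gave 1 to 4 for KCl at 6 h with c-Fos shRNA, 0 to 2 at 3 h and 2 to 3 at 6 h with control shRNA, 0 to 1 between the arms at 0, 1 and 3 h, 0 to 0 at 6 h, and 3 to 3 on the average. For KCl at 1 h, KCl at 3 h with c-Fos shRNA, the interaction at 6 h and the F test it gave 0 throughout. The fits that left out an array did not use the pairing of replicate numbers, and in them a lone array is assumed to vary like the other groups. The cause of these moves was not tested. Without detection calls, changes of Grin2d and Grin2a are limited by signal near background.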
